A study of Mus musculus with 9 samples.

Results

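The sarcoplasmic calcium handling genes described here are 10 genes taken by symbol from the 13116 genes of the deposited table. They comprise the calcium pumps Atp2a1 and Atp2a2, the pump inhibitors Sln and Pln, and the calsequestrins Casq1 and Casq2. The others are the release channel Ryr1, the voltage sensor Cacna1s, the cytosolic buffer Pvalb and the calcium-binding store protein Srl. All 10 were present in the table and all 10 passed the filter on low values. RNA was measured in the quadriceps of 9 male mice aged 18 months, with 3 mice in each of 3 groups. Wild-type mice given PBS are called WT_PBS. GAA KO mice, which lack the lysosomal glycogen-degrading enzyme acid alpha-glucosidase (gene Gaa), were given either PBS (KO_PBS) or the vector AAV8-sp7-delta8-hGAAco (KO_secGAA). That vector provides secGAA, a secretable form of the enzyme, and the series title places its expression in the liver. All mice, controls included, received a tail vein injection at 9 months of age and were sampled 9 months later. The strain, the knockout allele and the promoter of the vector were not given in the sources used here, and neither is whether littermates were used. The p-values measure the spread between these mice.

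In resting muscle, calcium is held inside the sarcoplasmic reticulum, a membrane store wrapped around each myofibril, where calsequestrin binds it. When the membrane depolarises, the voltage sensor in the transverse tubule opens the ryanodine receptor in the facing store membrane. Calcium then flows out and activates contraction. Relaxation follows as parvalbumin binds calcium in the cytosol of fast fibres and the pumps of the sarcoplasmic reticulum return it to the store. Small membrane peptides such as sarcolipin, phospholamban and myoregulin bind the pump and reduce its activity. Atp2a1 and Casq1 are the forms typical of fast fibres, whereas Atp2a2 and Casq2 are the forms of slow fibres and the heart.

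Values are normalized counts, which are reads plus 0.5, divided by a scaled library size. Libraries held 9299156 to 15957106 reads in the genes of the table. Each read was worth 0.0652 to 0.0922 normalized counts, and 3 reads, taken here as the limit of detection, for 0.196 to 0.276. Gaa itself lay at 128.6 to 296 normalized counts in WT_PBS, at 14.02 to 17.78 in KO_PBS and at 15.07 to 16.61 in KO_secGAA. No library stood against its genotype label. The fast myosin gene Myh4 was abundant in every group, with means of 48171 in WT_PBS, 30853 in KO_PBS and 42066 in KO_secGAA. In bulk tissue, fewer cells or fibres of a type and less RNA per cell cannot be told apart.

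In KO_PBS against WT_PBS, the pump inhibitors Sln and Pln and the slow-type forms Atp2a2 and Casq2 rose, while the fast-type Casq1, the buffer Pvalb and Srl fell. Ryr1, Cacna1s and Atp2a1 did not pass the test. The test was limma on log2(value + 0.5), with Benjamini-Hochberg adjustment over 13089 genes and a threshold of 0.05. Thus 4 members rose and 3 fell, beside 21.9% of all tested genes called, 10.9% upward and 11% downward. Without scaling factors 5 members rose and 1 fell, and with quantile normalization 4 rose and 1 fell. The groups did not overlap for 8 of the 10 members, as for 39.7% of all genes. The median log2 fold change of the members was -0.07, beside 0.01 over all genes.

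In KO_secGAA against KO_PBS, Sln fell and Casq1 rose, and the other 8 members did not pass. Over all genes, 3.67% were called in that comparison, 1.37% upward and 2.31% downward. The groups did not overlap for 6 members, beside 24% of genes, and the members' median log2 fold change was 0.0014. In KO_secGAA against WT_PBS, Sln alone of the members passed, and it was higher in the treated mice, beside 3.72% of all genes called, 1.83% upward and 1.89% downward. For 5 members the groups did not overlap there, beside 26.9% of genes, with a median log2 fold change of -0.06. The 3 comparisons share libraries, so their values are set side by side and are not independent.

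**Figure D1:**
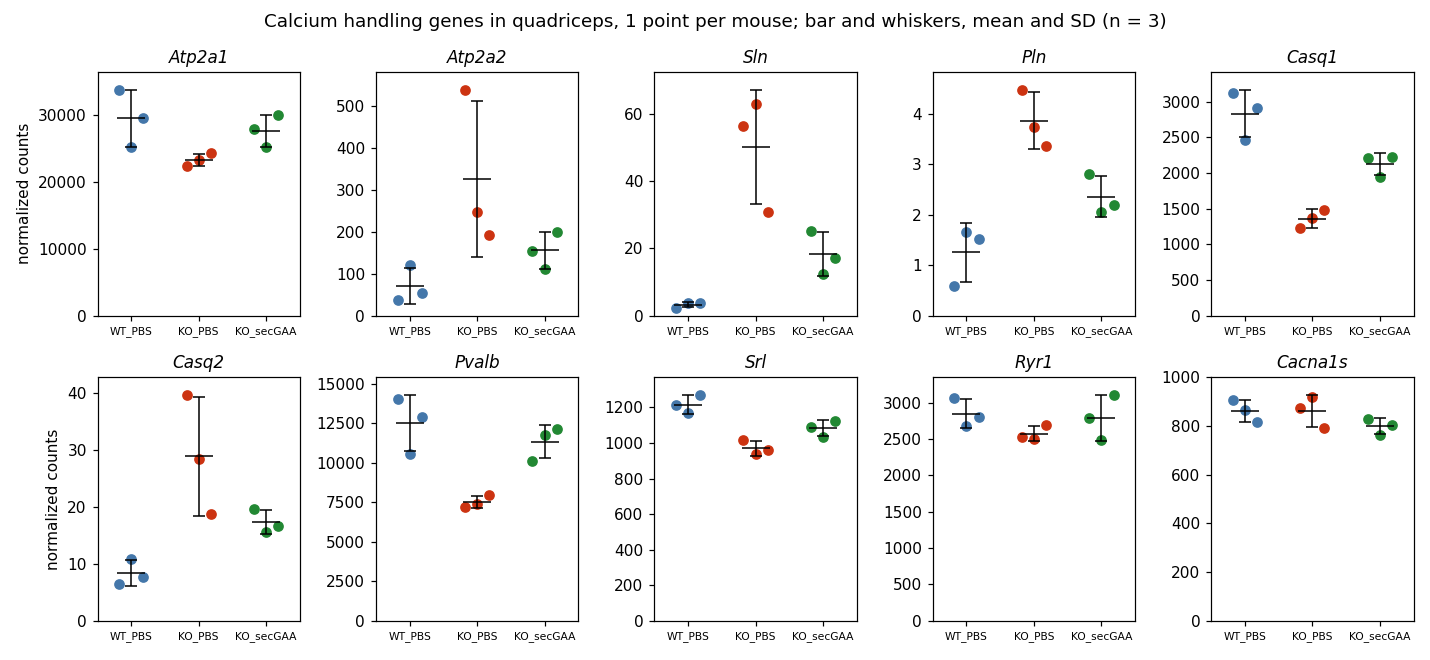
Normalized counts of the 10 members in each of the 9 libraries, on a linear axis from 0 for each gene, with the mean and SD of each group of 3 mice. Sln, Pln, Atp2a2 and Casq2 are lowest in WT_PBS and highest on average in KO_PBS, whereas Casq1 and Pvalb are lowest in KO_PBS.

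Sln encodes sarcolipin, a pump inhibitor (GRCm38 chr9:53850164-53854560, plus strand). Its levels were 2.30, 3.76 and 3.59 normalized counts in WT_PBS mice, 56.5, 63.1 and 30.9 in KO_PBS mice and 25.3, 12.5 and 17.04 in KO_secGAA mice. The 3 groups did not overlap, and every treated mouse lay between the wild-type and the PBS knockout mice. The WT_PBS values rest on 33, 53 and 48 reads, well above the detection limit. Sln rose by 3.73 in log2 terms between WT_PBS and KO_PBS (SE 0.31, 95% interval 3.03 to 4.43, adjusted p = 6.59e-05), a 13.3-fold difference. In KO_secGAA against KO_PBS it fell by 1.43 (SE 0.31, 95% interval -2.12 to -0.73, adjusted p = 0.0387). This fall was no longer called with only those 2 groups in the fit (adjusted p = 0.0636), or without WT_PBS 2, WT_PBS 3, KO_PBS 1, KO_PBS 2, KO_secGAA 2 or KO_secGAA 3 (highest adjusted p 0.131). In KO_secGAA against WT_PBS it was still higher by 2.30 (SE 0.31, 95% interval 1.61 to 2.999, adjusted p = 0.00616), which is 4.94-fold.

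Markers of muscle regeneration changed between groups in the same directions as Sln. The list of 13 genes includes Actc1, the actin of heart and developing muscle, and Nes, the filament protein nestin. Of these, 11 rose and none fell in KO_PBS against WT_PBS, or 84.6% called beside 21.9% of all genes. In KO_secGAA against KO_PBS 4 fell and none rose, or 30.8% beside 3.67% of all genes. The summed level of the list was 188 to 198 normalized counts in WT_PBS, 487 to 615 in KO_PBS and 226 to 284 in KO_secGAA. Within groups the order differed. The mice with the highest Sln were WT_PBS 2, KO_PBS 2 and KO_secGAA 1. Those with the highest sum of the list were WT_PBS 3, KO_PBS 1 and KO_secGAA 2. The part of these markers in the Sln result was not tested.

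Pln encodes phospholamban, the pump inhibitor known best from the heart (chr10:53337667-53345987, plus strand). It was the least abundant member, at 0.583, 1.65 and 1.52 normalized counts in WT_PBS mice, 4.47, 3.74 and 3.36 in KO_PBS mice and 2.81, 2.05 and 2.20 in KO_secGAA mice. The groups did not overlap, although these levels rest on only 8 to 68 reads per library. Pln rose by 1.37 in log2 terms between WT_PBS and KO_PBS (SE 0.27, adjusted p = 0.00678). The difference of -0.61 in KO_secGAA against KO_PBS did not pass (95% interval -1.23 to 0.0031, adjusted p = 0.261), nor did the difference of 0.76 in KO_secGAA against WT_PBS (adjusted p = 0.147).

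The 9 other pumps and pump regulators with values were listed by role, with earlier results of these data known. Of them, 1 rose and 1 fell in KO_PBS against WT_PBS. That is 22.2%, near the 21.9% called over all genes. The one that fell was Mrln, which encodes myoregulin, a pump inhibitor of skeletal muscle (chr10:70204664-70219711, plus strand). Its levels were 85.2, 59.0 and 67.2 normalized counts in WT_PBS mice, 18.2, 22.4 and 20.3 in KO_PBS mice and 29.8, 48.4 and 54.9 in KO_secGAA mice. As for Sln, no groups overlapped, but here the PBS knockout mice were the lowest. Mrln fell by 1.76 in log2 terms between WT_PBS and KO_PBS (SE 0.21, adjusted p = 0.000559) and rose by 1.07 in KO_secGAA against KO_PBS (SE 0.21, adjusted p = 0.0301). That rise lost its call without WT_PBS 3, any 1 of the KO_PBS mice, KO_secGAA 2 or KO_secGAA 3 (highest adjusted p 0.103). The one that rose was Strit1, listed in the table as Gm34302, whose peptide DWORF is known to raise pump activity. It had 0, 12 and 0 reads in WT_PBS mice, 26, 24 and 9 in KO_PBS mice and 3, 8 and 17 in KO_secGAA mice. The WT_PBS and KO_PBS values overlapped, and 2 wild-type libraries were under the detection limit. Its log2 difference of 1.41 was called by limma (adjusted p = 0.0487), but not by edgeR (adjusted p = 0.121), DESeq2 (adjusted p = 0.0914), with quantile normalization (adjusted p = 0.0892) or with only the 2 groups (adjusted p = 0.0603). It was called in 5 of 9 other settings, with values from 0.96 to 3.83. It also lost its call without WT_PBS 1, WT_PBS 3, KO_PBS 3 or KO_secGAA 2 (highest adjusted p 0.157).

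These 4 peptides are encoded by very short reading frames, shown here for the small pump regulators named above. The counts are per gene, and pump activity was not measured. The exons span 1318 bases for Sln and 2759 for Pln, so reads need not lie in the frames. The sequences are the coding bases of GENCODE M21 transcripts on GRCm38, 5′ to 3′ on the coding strand, with the start and stop codons in capitals. The frame of Sln has 96 bases, at chr9:53853473-53853568.
Sln: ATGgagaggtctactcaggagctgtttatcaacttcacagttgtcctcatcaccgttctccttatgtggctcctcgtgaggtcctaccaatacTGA
The frame of Mrln has 141 bases, at chr10:70219496-70219636.
Mrln: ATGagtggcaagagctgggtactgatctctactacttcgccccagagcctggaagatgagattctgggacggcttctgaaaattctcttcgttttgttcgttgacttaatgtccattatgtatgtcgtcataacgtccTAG
The frame of Pln has 159 bases, at chr10:53343864-53344022.
Pln: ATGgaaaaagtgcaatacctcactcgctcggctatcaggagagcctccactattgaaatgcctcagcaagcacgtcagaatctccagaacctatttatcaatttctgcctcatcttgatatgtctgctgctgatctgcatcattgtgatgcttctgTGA
The frame of Strit1 has 105 bases, spliced from chr3:63481290-63483827 on the minus strand.
Strit1: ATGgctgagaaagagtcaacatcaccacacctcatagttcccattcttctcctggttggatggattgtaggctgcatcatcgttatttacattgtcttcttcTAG

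**Figure D2:**
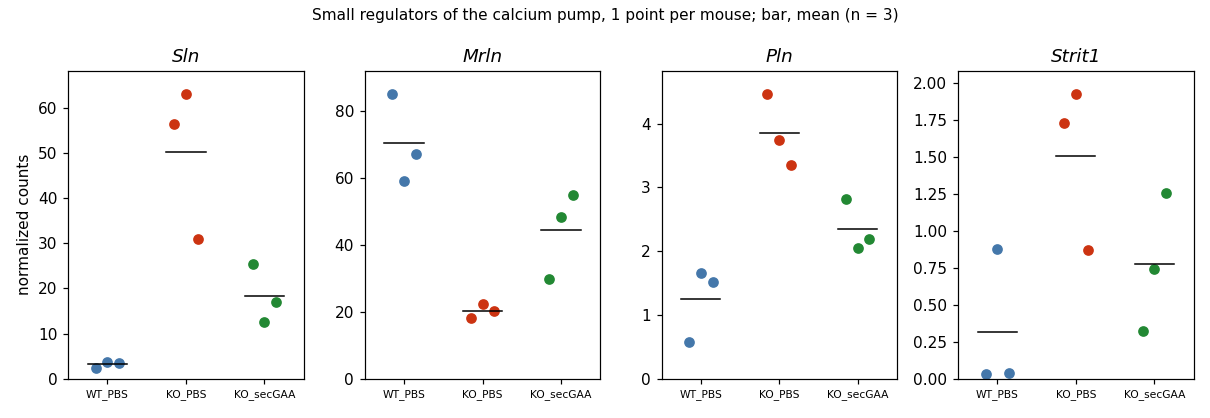
Normalized counts of the pump regulators Sln, Mrln, Pln and Strit1 in each of the 9 libraries, on linear axes from 0, with the group means as bars. Sln is lowest and Mrln highest in WT_PBS, and the 3 treated mice lie between the other groups for both genes.

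The pumps themselves differed in how they moved. Atp2a1, the fast-fibre pump (chr7:126445858-126463108, minus strand), was at 33768, 25234 and 29629 normalized counts in WT_PBS mice, 22447, 23313 and 24286 in KO_PBS mice and 27917, 25203 and 30004 in KO_secGAA mice. All 3 KO_PBS mice lay below every other mouse. The log2 difference of -0.33 between KO_PBS and WT_PBS nevertheless did not pass (95% interval -0.76 to 0.10, adjusted p = 0.255), and DESeq2 alone of the tools called it (adjusted p = 0.0258). With quantile normalization the difference turned to 0.24. The difference of 0.24 between KO_secGAA and KO_PBS did not pass either (95% interval -0.19 to 0.67, adjusted p = 0.541).

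Atp2a2, the slow-fibre and cardiac pump (chr5:122453513-122502225, minus strand), was at 37.5, 120 and 55.0 normalized counts in WT_PBS mice, 539, 247 and 192 in KO_PBS mice and 155, 111 and 201 in KO_secGAA mice. The KO_PBS mice all exceeded the wild-type mice, while the treated mice overlapped with both. Atp2a2 rose by 2.22 in log2 terms between WT_PBS and KO_PBS (SE 0.46, 95% interval 1.20 to 3.24, adjusted p = 0.00757), a 4.66-fold difference. The differences of -0.96 in KO_secGAA against KO_PBS (95% interval -1.98 to 0.06, adjusted p = 0.287) and of 1.26 in KO_secGAA against WT_PBS (95% interval 0.24 to 2.28, adjusted p = 0.147) did not pass.

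Per kilobase of exon, Atp2a1 stood at mean levels of 8497, 6715 and 7969 normalized counts in WT_PBS, KO_PBS and KO_secGAA, and Atp2a2 at 11.7, 53.6 and 25.6. Of the pump RNA of both genes, scaled by length, Atp2a2 was 0.0635% to 0.271% in WT_PBS, 0.451% to 1.35% in KO_PBS and 0.251% to 0.381% in KO_secGAA. Atp2a2 therefore stayed a small minority of the pump RNA in all 9 mice. The within-library log2 ratio of Atp2a2 to Atp2a1, which does not depend on library scaling, was -8.87 ± 1.06 (SD, n = 3) in WT_PBS, -6.31 ± 0.83 in KO_PBS and -7.51 ± 0.30 in KO_secGAA. KO_PBS exceeded WT_PBS by 2.56, or 5.90-fold, without overlap (exact two-sided permutation p = 0.1, the smallest that 3 against 3 can give). KO_secGAA lay below KO_PBS by a difference of -1.21, also without overlap (exact permutation p = 0.1). The difference of 1.35 between KO_secGAA and WT_PBS came with overlapping groups (exact permutation p = 0.2).

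Markers of slow fibres moved with Atp2a2. The list holds 10 sarcomere genes such as Ankrd2 and the slow myosin light chain Myl3. Of them 5 rose and none fell in KO_PBS against WT_PBS, and none was called in KO_secGAA against KO_PBS. Their summed level was 76.2, 612 and 272 normalized counts in WT_PBS mice, 2390, 902 and 517 in KO_PBS mice and 615, 526 and 1247 in KO_secGAA mice. Within each group the mouse with the highest slow-fibre sum (WT_PBS 2, KO_PBS 1 and KO_secGAA 3) was also the one with the highest Atp2a2. For Sln the highest mice were WT_PBS 2, KO_PBS 2 and KO_secGAA 1. Of 5 cardiac markers only Myh6 had values, with means of 5.09, 54.1 and 30.1 in WT_PBS, KO_PBS and KO_secGAA (adjusted p = 0.0525 in KO_PBS against WT_PBS), and it can share reads with its closely similar neighbour Myh7. Smooth muscle and pericyte markers, which include Rgs5 and Smtn, summed to 398 to 419 in WT_PBS, 331 to 360 in KO_PBS and 323 to 363 in KO_secGAA, with 1 of 10 rising and 2 falling in KO_PBS against WT_PBS, or 30.0% beside 21.9% of all genes. The part of these markers in the results on Atp2a2, Pln and Casq2 was not tested.

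Casq1, the calsequestrin of fast fibres (chr1:172209894-172219868, minus strand), was at 3120, 2469 and 2910 normalized counts in WT_PBS mice, 1225, 1368 and 1486 in KO_PBS mice and 2212, 1949 and 2229 in KO_secGAA mice. The 3 groups did not overlap, with the PBS knockout mice lowest and the treated mice between. Casq1 fell by 1.06 in log2 terms between WT_PBS and KO_PBS (SE 0.12, 95% interval -1.34 to -0.78, adjusted p = 0.000462), to 0.481 of the wild-type level. It rose by 0.65 in KO_secGAA against KO_PBS (SE 0.12, 95% interval 0.37 to 0.93, adjusted p = 0.0247). This rise was not called without scaling factors (adjusted p = 0.0516), with quantile normalization (adjusted p = 0.149), or without WT_PBS 3, KO_PBS 1, KO_PBS 2 or any 1 of the treated mice (highest adjusted p 0.0847). The remaining difference of -0.41 from WT_PBS did not pass (95% interval -0.69 to -0.13, adjusted p = 0.0998), although DESeq2 called it (adjusted p = 0.0140).

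Casq2, the calsequestrin of slow fibres and the heart (chr3:102086415-102146514, plus strand), moved the other way, at 6.48, 10.9 and 7.66 normalized counts in WT_PBS mice, 39.7, 28.4 and 18.8 in KO_PBS mice and 19.7, 15.7 and 16.8 in KO_secGAA mice. Both knockout groups lay above every wild-type mouse, and the treated mice overlapped with the PBS knockout mice. Casq2 rose by 1.70 in log2 terms between WT_PBS and KO_PBS (SE 0.26, 95% interval 1.13 to 2.28, adjusted p = 0.00172). The difference of -0.66 in KO_secGAA against KO_PBS did not pass (95% interval -1.24 to -0.09, adjusted p = 0.200). The difference of 1.04 in KO_secGAA against WT_PBS missed the threshold (95% interval 0.46 to 1.62, adjusted p = 0.0567). It was called by DESeq2 (adjusted p = 0.00535), without scaling factors (adjusted p = 0.0242), with only those 2 groups in the fit (adjusted p = 0.0355) and without KO_PBS 1 or KO_PBS 3.

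Scaled by length, Casq2 made up 0.148% to 0.315% of calsequestrin RNA in WT_PBS, 0.894% to 2.26% in KO_PBS and 0.533% to 0.630% in KO_secGAA. The log2 ratio of Casq2 to Casq1 was -8.43 ± 0.56 (SD, n = 3) in WT_PBS, -5.61 ± 0.68 in KO_PBS and -6.94 ± 0.12 in KO_secGAA, and no groups overlapped. KO_PBS exceeded WT_PBS by 2.82, or 7.06-fold, and KO_secGAA exceeded WT_PBS by 1.49. KO_secGAA differed from KO_PBS by -1.33. Each of these 3 differences had the smallest p that the exact two-sided permutation test allows, 0.1. Casq2 was highest in the mice with the highest slow-fibre sums in WT_PBS and KO_PBS, but in KO_secGAA it was highest in mouse 1, while the slow-fibre sum was highest in mouse 3.

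**Figure D3:**
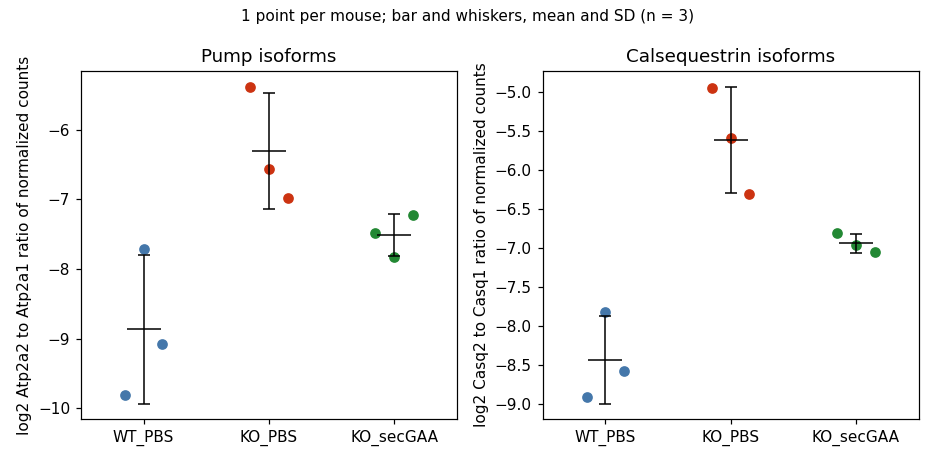
Within-library log2 ratios of Atp2a2 to Atp2a1 and of Casq2 to Casq1, 1 point per mouse with the mean and SD of each group. Both ratios are lowest in WT_PBS, highest in KO_PBS and intermediate on average in KO_secGAA, and Atp2a2 to Atp2a1 overlaps between WT_PBS and KO_secGAA.

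Because the 2 calsequestrin genes moved in opposite directions, their promoters are shown, from 250 bases before to 50 bases after the start, as RefSeq gives them on GRCm38.p6. Capitals mark E-boxes (CANNTG), the letters bound by myogenic basic helix-loop-helix factors.
Casq1, chr1:172219846-172220145, minus strand: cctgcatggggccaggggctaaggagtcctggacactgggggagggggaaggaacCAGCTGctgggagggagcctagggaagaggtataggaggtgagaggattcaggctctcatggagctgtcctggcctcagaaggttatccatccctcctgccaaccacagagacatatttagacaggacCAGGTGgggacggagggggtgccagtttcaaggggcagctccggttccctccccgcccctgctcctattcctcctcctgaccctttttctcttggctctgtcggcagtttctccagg
Casq2, chr3:102086165-102086464, plus strand: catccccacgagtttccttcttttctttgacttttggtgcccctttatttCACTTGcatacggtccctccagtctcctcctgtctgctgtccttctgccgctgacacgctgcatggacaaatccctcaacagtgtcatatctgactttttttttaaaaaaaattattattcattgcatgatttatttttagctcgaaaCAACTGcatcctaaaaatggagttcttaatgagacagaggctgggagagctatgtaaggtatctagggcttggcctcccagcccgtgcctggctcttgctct

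The E-box CANNTG, searched on both strands, was found in 6 of the 7 members with a RefSeq promoter (Casq1, Casq2, Atp2a1, Pln, Pvalb, Ryr1 and Cacna1s), and in 72.3% of the 32851 promoters of that length. The narrower form CAGCTG, which is contained in CANNTG, was found in Casq1, Atp2a1, Cacna1s and Pln, beside 16.3% of all promoters. In Casq1 it begins 195 bases before the start, and in Atp2a1 55 bases before. In KO_PBS against WT_PBS, members with CAGCTG and members without it rose, fell or did not pass. Ryr1, the only member of the 7 without an E-box in any of its promoter entries, did not pass. The 7 members have 8 entries, because Pvalb is listed at chr15:78206351-78206650 and at chr15:78204188-78204487. The first of these had 0 E-boxes and the second had 2. A member was counted if any of its entries matched, whereas the percentages are shares of single promoters. The MEF2 motif, searched in a narrow form only, was in 0 of the 7 and in 0.557% of all promoters. Looser MEF2 forms were not counted, so the AT-rich stretch ttatttttag in the Casq2 promoter was not a match. TGACG was in 0 of the 7 and in 20.8% of all promoters. A match is a description of the sequence only.

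Srl encodes sarcalumenin, a calcium-binding glycoprotein of the sarcoplasmic reticulum (chr16:4480216-4541816, minus strand). It was at 1213, 1166 and 1269 normalized counts in WT_PBS mice, 1017, 936 and 960 in KO_PBS mice and 1090, 1035 and 1123 in KO_secGAA mice. The 3 groups did not overlap, but the differences were small. Srl fell by 0.32 in log2 terms between WT_PBS and KO_PBS (SE 0.085, 95% interval -0.51 to -0.13, adjusted p = 0.0232). The call ended without scaling factors, where the difference was -0.0077 (adjusted p = 0.946), with quantile normalization (adjusted p = 0.239), and without WT_PBS 3, KO_PBS 2 or KO_PBS 3 (highest adjusted p 0.0987). The differences of 0.16 in KO_secGAA against KO_PBS (adjusted p = 0.360) and -0.17 in KO_secGAA against WT_PBS (adjusted p = 0.287) did not pass.

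Pvalb, which encodes the cytosolic buffer parvalbumin (chr15:78191114-78206400, minus strand), had the highest level per kilobase of the members, with means of 12020, 7229 and 10894 normalized counts in WT_PBS, KO_PBS and KO_secGAA. In single libraries it was at 14038, 10574 and 12926 normalized counts in WT_PBS mice, 7203, 7402 and 7971 in KO_PBS mice and 10137, 11769 and 12117 in KO_secGAA mice. All 3 KO_PBS mice lay below every other mouse, and the treated mice overlapped with the wild type. Pvalb fell by 0.72 in log2 terms between WT_PBS and KO_PBS (SE 0.16, 95% interval -1.08 to -0.37, adjusted p = 0.0108). The call ended without scaling factors, at -0.41 (adjusted p = 0.0541), with quantile normalization, at -0.04 (adjusted p = 0.868), and without WT_PBS 3 (adjusted p = 0.0507). The difference of 0.59 in KO_secGAA against KO_PBS did not pass (95% interval 0.23 to 0.95, adjusted p = 0.0793), but was called by edgeR (adjusted p = 0.0404), voom (adjusted p = 0.0372) and DESeq2 (adjusted p = 0.000221). The difference of -0.14 from WT_PBS after treatment did not pass (adjusted p = 0.662).

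Fast-fibre markers changed between groups in the same directions as Casq1 and Pvalb. Of 12 sarcomere genes such as Myh4 and the fast troponin Tnnt3, 8 fell and none rose in KO_PBS against WT_PBS. That is 66.7% called, beside 21.9% of all genes. None was called in KO_secGAA against KO_PBS, beside 3.67% of all genes. The groups did not overlap there for 10 of the 12, beside 24% of all genes, and the median log2 fold change of the list was 0.34. The sums were 120038 to 150243 normalized counts in WT_PBS, 87609 to 98378 in KO_PBS and 111065 to 126210 in KO_secGAA. In WT_PBS 1 and KO_secGAA 3 the sum, Casq1 and Pvalb were each the highest of their group. KO_PBS 1 had the highest sum of its group but the lowest Casq1 and Pvalb. The part of these markers in these results was not tested.

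The release channel and its voltage sensor showed no called difference between groups. Ryr1, the release channel (chr7:29003344-29125179, minus strand), was at 3065, 2675 and 2801 normalized counts in WT_PBS mice, 2533, 2498 and 2699 in KO_PBS mice and 2786, 2482 and 3104 in KO_secGAA mice, and all groups overlapped. Its log2 difference in KO_PBS against WT_PBS was -0.14 (95% interval -0.40 to 0.12, adjusted p = 0.424), and it turned positive under 2 other scalings. Cacna1s, the voltage sensor and pore subunit of the transverse tubule channel (chr1:136052750-136119822, plus strand), was at 905, 864 and 817 normalized counts in WT_PBS mice, 874, 920 and 793 in KO_PBS mice and 829, 765 and 805 in KO_secGAA mice. Here too the groups overlapped, and the difference in KO_PBS against WT_PBS was -0.0011 (95% interval -0.20 to 0.20, adjusted p = 0.995). Without scaling factors, which moved the median of all genes to 0.31, it became 0.32 and was called (adjusted p = 0.0188). In KO_secGAA against KO_PBS the differences were 0.11 for Ryr1 (95% interval -0.15 to 0.37, adjusted p = 0.663) and -0.11 for Cacna1s (95% interval -0.31 to 0.09, adjusted p = 0.571).

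**Figure D4:**
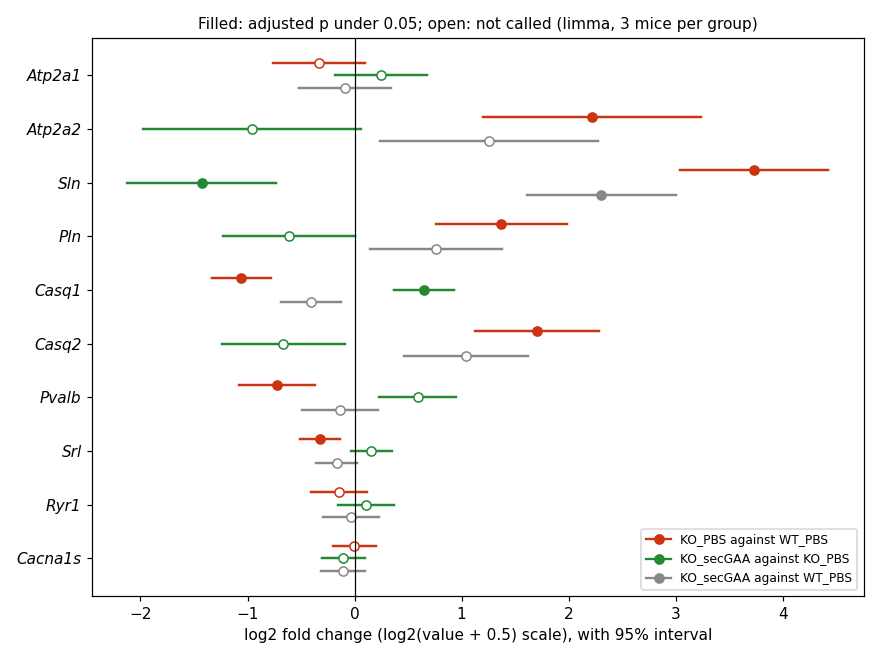
Log2 fold changes of the 10 members in the 3 comparisons, with 95% intervals from limma, and filled symbols where the adjusted p was under 0.05. Sln has the highest value in KO_PBS against WT_PBS and Casq1 the lowest, and both lie nearer to 0 in KO_secGAA against WT_PBS.

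Levels per kilobase set the order of the members in WT_PBS. Pvalb (12020 normalized counts per kilobase) was followed by Atp2a1 (8497), Casq1 (1452), Srl (228), Cacna1s (132), Ryr1 (130), Atp2a2 (11.7), Casq2 (3.05), Sln (2.44) and Pln (0.453). Cacna1s and Ryr1 did not differ beyond their spread in WT_PBS, and neither did Casq2 and Sln. In KO_PBS, Sln stood at 38.1 per kilobase, above Casq2 at 10.6, while Pln stayed last at 1.40. In KO_secGAA, Sln was at 13.9, Casq2 at 6.35 and Pln at 0.853.

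A further 72 calcium genes were listed by role, with earlier results of these data known. Of these, 66 had values and all 66 were tested. In KO_PBS against WT_PBS, 8 rose, 22 fell and 36 were not called, so that 45.5% were called, beside 21.9% of all genes, with a median log2 fold change of -0.18. Without scaling factors 17 rose and 9 fell, where 4467 of all genes rose and 518 fell. With quantile normalization 7 rose and 17 fell, and edgeR, voom and DESeq2 gave 7 or 8 rises and 22 to 24 falls. Among these settings, the balance of directions turned only without scaling factors. In KO_secGAA against KO_PBS, 5 rose and 3 fell, which is 12.1% called beside 3.67% of all genes. Without scaling factors 4 rose and 10 fell there, where 102 of all genes rose and 856 fell. In KO_secGAA against WT_PBS, 2 fell and none rose, which is 3.03% called beside 3.72% of all genes. The directions turned without scaling factors, where 2 rose and none fell, and with quantile normalization 1 rose and 1 fell.

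Among the 21 genes of the triad, the junction between transverse tubule and store, 3 rose and 10 fell in KO_PBS against WT_PBS. Of all genes, 10.9% rose and 11% fell. Without scaling factors 5 triad genes rose and 3 fell, and with quantile normalization 3 rose and 6 fell. The accessory subunits of the voltage-gated channel, which assemble with Cacna1s, went both ways: Cacng1 and Cacnb1 rose, while Cacng6 (log2 fold change -0.60, adjusted p = 0.0031) and Cacna2d1 (-0.31, adjusted p = 0.0229), named here after their values were seen, fell. Cacng1, its gamma subunit, had a mean of 325 ± 80.2 normalized counts (SD, n = 3) in WT_PBS, 969 ± 98.6 in KO_PBS and 553 ± 120 in KO_secGAA, and rose by 1.599 in log2 terms (adjusted p = 0.00062). Its difference of -0.83 in KO_secGAA against KO_PBS narrowly missed the threshold (adjusted p = 0.0533). Cacnb1, the beta subunit, was at 171 to 187 in WT_PBS, 323 to 335 in KO_PBS and 158 to 210 in KO_secGAA. It rose by 0.87 in KO_PBS against WT_PBS (adjusted p = 0.000566) and fell by 0.81 in KO_secGAA against KO_PBS (adjusted p = 0.00497). The treated and wild-type mice overlapped, with a difference of 0.05 (adjusted p = 0.807). Tmem38b, a potassium channel of the store membrane, rose by 0.43 in KO_PBS (adjusted p = 0.00382) and fell by 0.52 with the vector (adjusted p = 0.00812), with means of 81.4, 109.7 and 76.7 in WT_PBS, KO_PBS and KO_secGAA.

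Of the triad genes that fell, Stac3, an adaptor required for coupling the voltage sensor to release, went from 286 ± 21.3 normalized counts in WT_PBS to 163 ± 19.1 in KO_PBS and stood at 222 ± 17.8 in KO_secGAA. The log2 difference in KO_PBS against WT_PBS was -0.81 (adjusted p = 0.00083), and that in KO_secGAA against KO_PBS was 0.45 (adjusted p = 0.0510). Jph1, a junctophilin that tethers the store to the tubule, was at 292 to 333 in WT_PBS, 187 to 196 in KO_PBS and 255 to 316 in KO_secGAA. It fell by 0.70 (adjusted p = 0.000926) and rose by 0.57 in KO_secGAA against KO_PBS (adjusted p = 0.0120), although not without KO_PBS 2 (adjusted p = 0.0530). Homer1, a scaffold of calcium channels, fell by 0.76 in KO_PBS against WT_PBS (adjusted p = 0.00165). Its treated mice, at 54.5 to 65.5, lay between KO_PBS at 47.4 to 48.3 and WT_PBS at 68.9 to 92.4, without a call in KO_secGAA against KO_PBS (adjusted p = 0.167).

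Of 10 genes of store-operated entry and IP3-gated release, 2 fell and none rose in KO_PBS against WT_PBS, a share near the 21.9% called over all genes. Itpr1, an IP3-gated release channel, fell from 67.3 ± 8.83 normalized counts in WT_PBS to 30.4 ± 1.65 in KO_PBS (log2 fold change -1.13, adjusted p = 0.000112). It was at 45.0 ± 1.92 in KO_secGAA, a rise of 0.56 over KO_PBS (adjusted p = 0.0220) that still left it lower than WT_PBS by a log2 difference of -0.57 (adjusted p = 0.0201). The rise lost its call without scaling factors (adjusted p = 0.0584) and without KO_PBS 1, KO_PBS 2, KO_secGAA 2 or KO_secGAA 3 (highest adjusted p 0.0817). The difference from WT_PBS lost it without scaling factors (adjusted p = 0.0544) and without WT_PBS 3, KO_secGAA 1 or KO_secGAA 2 (highest adjusted p 0.0959).

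Among 8 genes that bind calcium in the lumen or cytosol, 1 rose and 3 fell in KO_PBS against WT_PBS, beside 21.9% of all genes called. Without scaling factors 3 rose and 2 fell. Calm3, which encodes the calcium sensor calmodulin, was at 514 ± 48.1 normalized counts in WT_PBS, 199.6 ± 21.1 in KO_PBS and 337 ± 52.0 in KO_secGAA. It fell by 1.36 in log2 terms between WT_PBS and KO_PBS (adjusted p = 0.000122), rose by 0.75 in KO_secGAA against KO_PBS (adjusted p = 0.0156) and stayed lower than WT_PBS by a difference of -0.61 (adjusted p = 0.0335). That last call ended without scaling factors (adjusted p = 0.0645), with quantile normalization (adjusted p = 0.0695), with only the 2 groups (adjusted p = 0.0559), and without WT_PBS 1, WT_PBS 3, KO_PBS 2, KO_secGAA 1 or KO_secGAA 2 (highest adjusted p 0.127). The rise over KO_PBS ended without KO_PBS 1 or KO_PBS 2 (highest adjusted p 0.0540). S100a1, a calcium-binding protein that acts on pump and release channel, was the one that rose, by 0.47 (adjusted p = 0.0272). It was not called with only the 2 groups (adjusted p = 0.0528) or without WT_PBS 1, WT_PBS 3, KO_PBS 1 or KO_PBS 2 (highest adjusted p 0.0959).

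In the mitochondrial uptake group of 6 genes, 2 rose and 1 fell in KO_PBS against WT_PBS, beside 21.9% of all genes called. When scaling factors were left out, 3 rose and none fell, where 4467 of all genes rose and 518 fell. Micu2, a regulator of the uniporter, rose by 0.52 (adjusted p = 0.0037), from 50.5 ± 4.24 normalized counts in WT_PBS to 72.6 ± 0.987 in KO_PBS. Mcu, the pore of the uniporter, rose by 0.44 (adjusted p = 0.0388), a call that ended without WT_PBS 1, WT_PBS 2, any 1 of the KO_PBS mice or KO_secGAA 3 (highest adjusted p 0.121). Among 12 genes of calcium-dependent signalling, 1 rose and 5 fell in KO_PBS against WT_PBS, where 10.9% of all genes rose and 11% fell. Leaving out the scaling factors, 2 rose and 2 fell, beside the same 4467 rises and 518 falls over all genes. Camk2d, a calmodulin-dependent kinase subunit, rose by 0.71 (adjusted p = 0.00309) and fell by 0.67 in KO_secGAA against KO_PBS (adjusted p = 0.0192), with means of 44.4, 72.7 and 45.7 in WT_PBS, KO_PBS and KO_secGAA. The fall ended without KO_PBS 2, KO_PBS 3 or KO_secGAA 2 (highest adjusted p 0.0760). Ppp3cb, a catalytic subunit of the phosphatase calcineurin, fell by 0.61 in KO_PBS against WT_PBS (adjusted p = 0.00255), with means of 302, 197.5 and 257 in WT_PBS, KO_PBS and KO_secGAA.

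**Figure D5:**
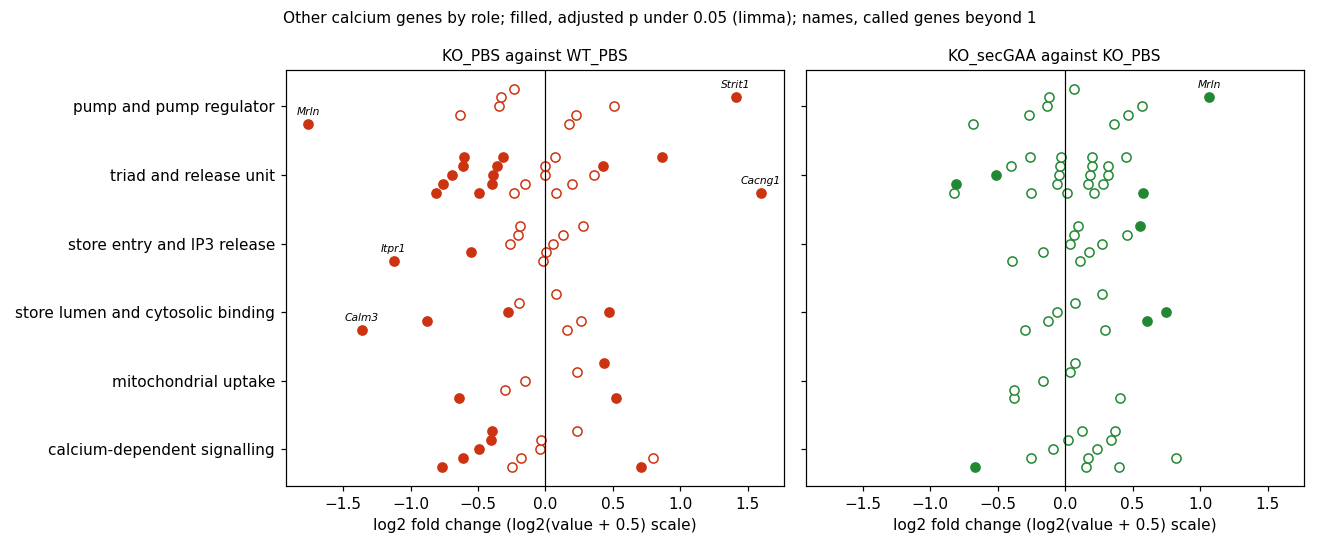
Log2 fold changes of the 66 other calcium genes by role, in KO_PBS against WT_PBS and in KO_secGAA against KO_PBS, 1 point per gene, filled where the adjusted p was under 0.05, with called genes beyond 1 in either direction labelled. Mrln, Calm3 and Itpr1 lie lowest of those labelled in KO_PBS against WT_PBS, and Cacng1 and Strit1 highest.

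The genes whose pattern over the 9 libraries was most like that of a member were found among 9251 tested genes by the root mean square difference of log2 values centred on WT_PBS. For Sln they were Prune2 (0.377), Ttc9 (0.422) and Kcnn3 (0.447), and Prune2 had means of 7.49, 103.4 and 48.1 normalized counts in WT_PBS, KO_PBS and KO_secGAA. For Atp2a2 they were Tpm3 (0.392), a tropomyosin gene that is also in the slow-fibre list, Egln3 (0.464) and Casq2 (0.467). For Casq1 they were Prkab2 (0.111), a subunit of the energy-sensing kinase AMPK, Me1 (0.114), the cytosolic malic enzyme, and Prr33 (0.118). Prkab2 had means of 342, 161.6 and 278 in the same order of groups. These are descriptions over libraries that share their scaling.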

How the data were processed

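RNA of 9 quadriceps samples was sequenced in single-end reads of 61 bases, per the labels' protocols. Tools named in the submitters' processing notes are RSEM, CASAVA, cutadapt, edgeR and limma, with the build GRCm38. Their roles and versions, and whether counting used strand, were not given in the sources used here. The deposited table holds a signal that is named normalized counts per the file headers. Whole reads could be recovered from it: all 118044 values were odd multiples of their column's minimum within 1e-06. TMM factors computed from those reads gave the table back with a largest relative difference of 9.2e-08.

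Of the 13116 genes, 27 that did not reach 1 in 3 libraries were left untested. The fit was limma 3.58.1 in R 4.3.3 on log2(value + 0.5), over all 9 libraries, with a trended empirical Bayes variance, 6 residual degrees of freedom and no covariate. Fold changes are on that scale, which understates those of low genes. Every adjusted p is from this fit (Benjamini-Hochberg over all genes) unless another tool is named. Ratios were compared with exact permutation tests. Alternatives were other pseudocounts (0.1 and 1), filters and scalings, edgeR 4.0.16, limma voom, DESeq2 1.42.0, fits of 2 groups and leaving out each library. The fit was tested on simulated data. The main test was kept on log2 values because the table holds normalized values.

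The members and lists were chosen with earlier results of these data known. Named by rule were all members, up to 8 rises and 8 falls of the other calcium genes in each comparison by smallest p, up to 2 members of each marker list by highest mean, and the 3 genes most like Sln, Atp2a2 and Casq1. A gene that the rule selects is not reported here. Myh7 was named outside that rule, after its values had been seen. Coordinates and exon lengths come from GENCODE M21 (GRCm38), and promoters from RefSeq.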

Additional observations from a re-analysis of the deposited data

How the results depend on the processing

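Without the scaling factors the median log2 difference of all genes in KO_PBS against WT_PBS moved from 0.01 to 0.31, and 4985 genes were called, 4467 up and 518 down, in place of 2867. The KO_PBS against WT_PBS calls of Sln, Pln, Atp2a2, Casq1 and Casq2, and the call of Sln in KO_secGAA against WT_PBS, held in every setting that tested them; Pln was below the filter on a mean of 5. Pln rests on 8 to 68 reads a library and Strit1 on 0 to 26, which limits their precision. No paired analysis was possible because the labels give the groups no shared replicate numbers.

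In KO_secGAA against KO_PBS, 1 member in place of 2 was called without scaling factors, 1 with quantile normalization and 1 with only the 2 groups; 3 were called with the filter on a mean of 5, edgeR, voom and DESeq2. Of the other calcium genes, 14 were called without scaling factors and 13 by DESeq2, in place of 8. Of all genes, 958 were called without scaling factors, 798 by DESeq2 and 316 with 2 groups, in place of 481. In KO_secGAA against WT_PBS, 2 members in place of 1 were called without scaling factors, 3 by DESeq2 and 2 with 2 groups. Of the other calcium genes, 8 were called by DESeq2 and 1 with 2 groups, in place of 2, and of all genes 1009 without scaling factors and 1022 by DESeq2, in place of 487. The cause was not tested.

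Leaving out each library in turn, all genes called ranged from 1730 to 2848 in KO_PBS against WT_PBS, 161 to 571 in KO_secGAA against KO_PBS and 89 to 504 in KO_secGAA against WT_PBS. Members called ranged from 5 to 7, 0 to 3 and 1 to 2 in the same order, and other calcium genes from 20 to 31, 2 to 11 and 0 to 4. The log2 differences of Atp2a2 to Atp2a1 ranged from 2.09 to 3.14, -1.54 to -0.74 and 0.88 to 1.93, and those of Casq2 to Casq1 from 2.49 to 3.17, -1.67 to -0.99 and 1.25 to 1.80.

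Signs turned for differences that had not passed. In KO_PBS against WT_PBS, Atp2a1 became 0.237 with quantile normalization, Ryr1 0.174 without scaling factors and 0.323 with quantile normalization, and Cacna1s 0.315, 0.181 and, in edgeR, 0.000189. Of these, the 0.315 of Cacna1s without scaling factors was called. In KO_secGAA against KO_PBS, Ryr1 became -0.0441 without scaling factors and -0.184 with quantile normalization. In KO_secGAA against WT_PBS, without scaling factors and with quantile normalization, Atp2a1 became 0.0766 and 0.290, Ryr1 0.130 and 0.139, and Pvalb 0.0264 and 0.130. Without scaling factors, Cacna1s became 0.0544, Jph1 0.0421 and Tmem38b 0.0748 there. Leaving out single libraries also turned signs: Cacna1s ranged from -0.0492 to 0.0584 in KO_PBS against WT_PBS, and in KO_secGAA against WT_PBS the ranges were -0.195 to 0.0154 for Atp2a1, -0.112 to 0.0491 for Ryr1, -0.0295 to 0.178 for Cacnb1, -0.0438 to 0.144 for Camk2d and -0.0347 to 0.176 for Mcu.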

Other observations

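Markers that belong in no comparison above were also counted. In KO_PBS against WT_PBS, 4 of 11 macrophage markers rose and none fell, and their summed level was 111 to 179 normalized counts in WT_PBS, 338 to 457 in KO_PBS and 154 to 316 in KO_secGAA. Of 8 endothelial markers 2 fell, and of 8 fibroblast markers 1 rose, beside 21.9% of all genes called in either direction. Of 6 satellite cell markers with values 1 rose, and of 2 T and B cell markers with values 1 fell. None of the 6 adipocyte, 6 Schwann and axon or 5 erythroid markers tested was called by limma in that comparison. With the vector against PBS in knockout mice, 2 of 11 macrophage, 2 of 8 fibroblast and 1 of 6 satellite cell markers fell. There 1 of 6 adipocyte markers rose, and 3.67% of all genes were called. No endothelial, T and B cell, Schwann and axon or erythroid marker was called in that comparison.

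The balance of the pump inhibitors sarcolipin and myoregulin was looked at after the values had been seen. Sln per Mrln, each per length, was 0.0241, 0.0571 and 0.0478 in WT_PBS mice, 2.77, 2.52 and 1.37 in KO_PBS mice and 0.760, 0.230 and 0.278 in KO_secGAA mice. Mrln RNA exceeded Sln RNA in all wild-type and treated mice, and Sln RNA exceeded Mrln RNA in all 3 PBS knockout mice. The 3 groups did not overlap. As this ratio was chosen for its pattern, it was given no test.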
